A study of Mus musculus with 6 samples.

Results

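The 10 genes described here encode cytosolic receptors for microbial and danger signals and the proteins that act with them: the inflammasome sensors Nlrp3, Nlrp1b, Nlrc4 and Aim2, the adaptor Pycard, the inflammatory caspases Casp1 and Casp4, the peptidoglycan receptors Nod1 and Nod2, and the pore-forming gasdermin Gsdmd. They were chosen by symbol from the 55401 gene IDs of the deposited expression tables, through the GENCODE mouse M21 annotation, and each matched a single ID. The tables hold FPKM, fragment counts scaled by gene length and by library total, for RNA of cells isolated from the lamina propria of the colon. Atorvastatin, a statin that blocks cholesterol synthesis, had been given to mice of 3 libraries at 20 mg/kg by oral gavage on alternate days, and the vehicle, 2% Tween 80, to mice of the other 3 libraries. All mice were males of 5 to 6 weeks and carried Apc Min/+, a mutant allele of the Wnt pathway suppressor Apc that gives the animals intestinal adenomas, so no library comes from an animal without it. Nothing in the labels ties each library to its own animal, so the p-values reflect library-to-library spread that may be technical.

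An inflammasome is a platform that forms in the cytosol when a sensor recognises its ligand and, usually through the adaptor ASC, the product of Pycard, brings caspase-1 molecules together. Active caspase-1 matures the cytokines IL-1 beta and IL-18 and cuts gasdermin D, whose freed end opens pores in the plasma membrane, whereas NOD1 and NOD2 signal through the kinase RIPK2 to NF-kB and cut no substrate. In the gut wall both systems respond to bacteria that breach the epithelium, and macrophages, dendritic cells and epithelial cells are known sites of their expression.

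RefSeq promoter windows (build GRCm38.p6, 250 bases before to 50 after an annotated start) were matched by symbol for 9 of the 10 genes, in 13 windows. The windows of Aim2 (chr1:173420354-173420653, plus strand), Casp1 (chr9:5298267-5298566, plus strand) and Nod2 (chr8:88647097-88647396, plus strand) are shown because the atorvastatin and vehicle libraries did not overlap in these genes, and a window of Casp4 (chr9:5308599-5308898, plus strand) because Casp4 had the highest FPKM. Capitals mark matches to the motifs searched.
Aim2: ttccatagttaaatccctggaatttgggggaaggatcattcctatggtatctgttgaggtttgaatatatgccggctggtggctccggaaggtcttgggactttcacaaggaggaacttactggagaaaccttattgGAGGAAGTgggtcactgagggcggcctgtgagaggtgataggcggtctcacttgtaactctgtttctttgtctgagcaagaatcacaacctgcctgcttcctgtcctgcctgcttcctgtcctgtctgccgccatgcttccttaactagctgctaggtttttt
Casp1: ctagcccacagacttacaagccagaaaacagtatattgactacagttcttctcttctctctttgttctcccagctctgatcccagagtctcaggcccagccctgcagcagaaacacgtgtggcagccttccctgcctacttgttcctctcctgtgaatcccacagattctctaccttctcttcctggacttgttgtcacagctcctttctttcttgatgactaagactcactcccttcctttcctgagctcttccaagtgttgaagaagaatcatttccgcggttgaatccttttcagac
Nod2: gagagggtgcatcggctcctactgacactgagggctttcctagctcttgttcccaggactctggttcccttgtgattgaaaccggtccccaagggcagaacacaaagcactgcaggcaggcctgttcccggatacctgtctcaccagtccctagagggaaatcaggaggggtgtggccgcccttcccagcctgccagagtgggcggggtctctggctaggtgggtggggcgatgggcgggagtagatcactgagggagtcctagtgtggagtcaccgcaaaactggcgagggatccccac
Casp4: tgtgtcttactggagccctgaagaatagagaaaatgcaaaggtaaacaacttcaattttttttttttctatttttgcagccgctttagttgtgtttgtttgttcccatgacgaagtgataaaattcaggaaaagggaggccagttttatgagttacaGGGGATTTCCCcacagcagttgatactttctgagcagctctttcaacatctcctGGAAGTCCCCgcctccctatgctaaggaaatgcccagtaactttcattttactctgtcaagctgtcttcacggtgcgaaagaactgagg
The motifs, searched on both strands, were GAGGAAGT for PU.1, a factor of myeloid and B cells, the interferon-stimulated response element, TTCNNNGAA for STAT factors, TCACNCCAC for the sterol regulatory element, and the NF-kB consensus. The PU.1 letters were found 113 bases before the start in Aim2, and also in windows of Pycard and Nlrp1b, and 3.20% of all 32851 windows hold them. The Casp4 window holds 3 NF-kB matches, at 93, 92 and 39 bases before the start, the first pair overlapping in all but a base at each end, and 8.46% of all windows hold a match. An NF-kB match was also found in a window of Nlrp3, 186 bases before its start. The STAT letters were found in a window of Nod1, 193 bases before its start, and stand in 8.30% of all windows. The interferon-stimulated element stands in 3.44% of all windows and the sterol element in 1.24%. None of the 5 motifs was found in the printed windows of Casp1 and Nod2. These matches describe letters only.

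Each library gave between 13303 and 13703 genes at 1 FPKM or more, and how many fragments lie behind a value is unknown. The labelled tissue was checked with markers: the T cell gene Cd3e, the B cell gene Cd79a and the macrophage gene Adgre1 were above 1 FPKM in all 6 libraries, 0 of the listed markers were at 0 FPKM in all of them, and the macrophage markers Cx3cr1 and Cd163 stayed below 1 FPKM. Other cell types were read as well: the plasma cell gene Igha had 12648.1 to 28660.63 FPKM, with the highest value in atorvastatin library 2. The fibroblast gene Dcn had 314.69 to 388.28 FPKM and the smooth muscle gene Acta2 181.15 to 323.11 FPKM. The epithelial gene Epcam had 8.27 to 13.6 FPKM, against 3.51 to 6.58 FPKM in Cd3e and 2.45 to 6.26 FPKM in Adgre1. Vehicle library 3 had the lowest mean Pearson's r to the other libraries across genes (0.944, against 0.957 to 0.961). Of the 10 genes, 8 had at least 1 FPKM in all 6 libraries and were tested; Nlrp1b and Nlrc4 stayed below 1 FPKM in every library.

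The question the design poses is whether atorvastatin alters expression in these cells. Of the 8 genes tested, 0 passed limma's test at a false discovery rate of 0.05, as did 0.0% of all 13590 genes tested. Aim2 and Casp1 were lower in every atorvastatin library than in any vehicle library and Nod2 was higher, so that the groups did not overlap in 3 of the 8 genes, against 14.4% of all genes tested (8.85% lower and 5.53% higher). An unadjusted p under 0.05 was reached by Aim2 and Nod2, 2 of 8, against 7.17% of all genes tested (4.04% lower and 3.13% higher). That count was 0 without atorvastatin library 2, atorvastatin library 3 or vehicle library 1, 1 without atorvastatin library 1 or vehicle library 3, and 3 without vehicle library 2. The median difference of the 8 genes was 0.01 on the log2(FPKM + 1) scale, against -0.02 over all genes tested, with 5 positive and 3 negative differences.

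**Figure D1:**
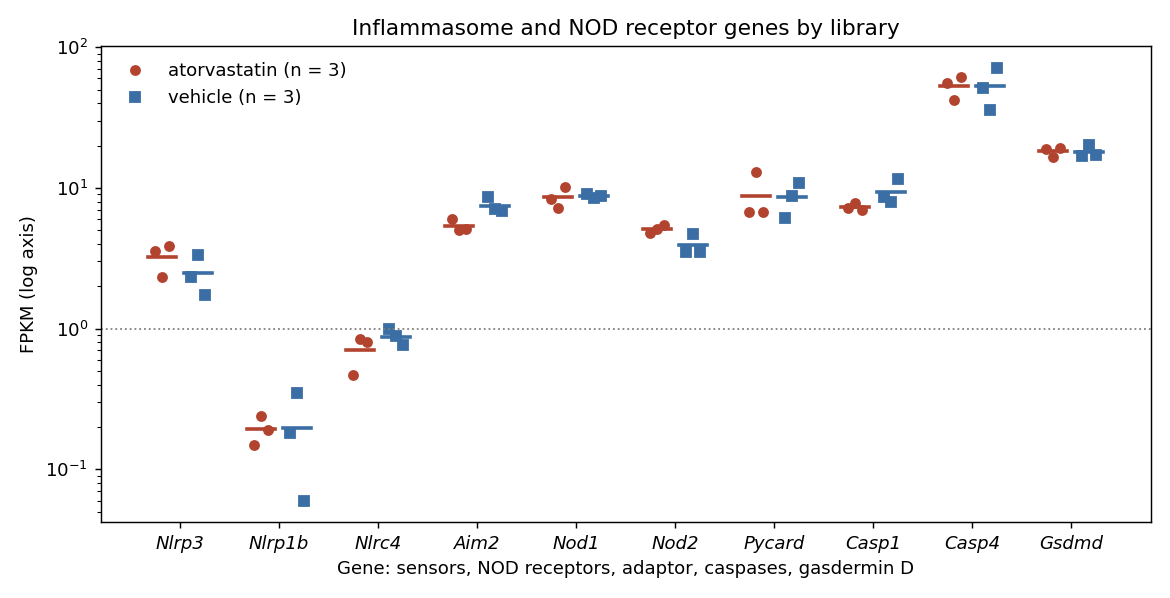
FPKM of each gene in each library on a log axis, atorvastatin as circles and vehicle as squares (n = 3 each), with a bar at each group's mean and a dotted line at 1 FPKM. Casp4 lies highest, between 35.62 and 71.63 FPKM, Nlrp1b lies lowest, between 0.06 and 0.35 FPKM, and the groups are apart in Aim2, Casp1 and Nod2.

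FPKM is scaled by gene length, so levels of different genes can be compared only as far as the lengths used are right. Those lengths are not given in the sources here, so the order below is that of the deposited values. Casp4 was the most abundant, with a mean of 53.1 FPKM over the 6 libraries, and Gsdmd followed with 18.1 FPKM. Their library ranges overlapped neither each other nor that of the next gene. Pycard (8.69 FPKM), Nod1 (8.64 FPKM) and Casp1 (8.36 FPKM) came next with overlapping ranges, then Aim2 (6.44 FPKM), Nod2 (4.51 FPKM) and Nlrp3 (2.86 FPKM), each overlapping its neighbour in this order. Nlrc4 (0.793 FPKM) and Nlrp1b (0.195 FPKM) were each below all libraries of the gene before them. Casp4 alone held between 36.6% and 54.0% of the FPKM summed over the 10 genes.

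Among the sensors, Aim2 (ENSMUSG00000037860, mm10 chr1:173350879-173466040, plus strand), which binds double-stranded DNA in the cytosol, had 6.06, 5.03 and 5.11 FPKM in the atorvastatin libraries, against 8.57, 7.05 and 6.80 FPKM in the vehicle libraries. All 3 atorvastatin libraries were below all vehicle libraries. The mean was 5.40 ± 0.573 FPKM with atorvastatin and 7.47 ± 0.958 FPKM with vehicle (SD, n = 3 each), which differ by -0.40 as log2(FPKM + 1), with SE 0.13 and a 95% interval of -0.71 to -0.10. Limma gave it an unadjusted p of 0.0166 and an adjusted p of 0.692, so Aim2 did not pass. The unadjusted p was 0.0545 without atorvastatin library 2, 0.0576 without atorvastatin library 3 and 0.0636 without vehicle library 1. B cells are among the cells that express Aim2. The 8 B cell markers read here, Cd79a and Ms4a1 among them, all had lower mean FPKM with atorvastatin. Groups without overlap were found in 6 of these 8 markers, all lower, against 8.85% lower of all genes tested. The summed level of the 8 markers was 277 to 300 FPKM in the atorvastatin libraries and 347 to 463 FPKM in the vehicle libraries. No marker was at 0. The part of B cells in the Aim2 values was not tested. In bulk RNA, fewer cells of a type and less RNA per cell cannot be told apart.

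Nlrp3 (chr11:59541568-59566956, plus strand), the sensor that responds to potassium efflux and membrane damage, had 3.54, 2.33 and 3.87 FPKM with atorvastatin, against 2.32, 3.35 and 1.74 FPKM with vehicle. The groups overlapped, since vehicle library 2 lay above atorvastatin library 2. The difference was 0.30 on the log2(FPKM + 1) scale (SE 0.22, 95% interval -0.22 to 0.82), with an adjusted p of 0.750 in limma. It was 0.14 without vehicle library 3, which had the lowest value, 0.47 without vehicle library 2 and 0.46 without atorvastatin library 2, and in the last 2 cases the groups no longer overlapped.

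The other two sensors were near the lower end of what these tables resolve. Nlrc4 (chr17:74425438-74459142, minus strand), which joins NAIP proteins that bind flagellin and parts of bacterial secretion systems, had 0.47, 0.85 and 0.81 FPKM with atorvastatin, against 0.99, 0.88 and 0.76 FPKM with vehicle. These groups overlapped, and the exact permutation test (two-sided) gave p = 0.4. Nlrp1b (chr11:71153102-71230733, minus strand), known in mice as the sensor of the protease of anthrax lethal toxin, had 0.15, 0.24 and 0.19 FPKM with atorvastatin, against 0.18, 0.35 and 0.06 FPKM with vehicle. Vehicle libraries held both its highest and its lowest value, and the exact permutation test gave p = 1.0. With 3 libraries against 3 the smallest p this test can give is 0.1.

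Both NOD receptors were read well above 1 FPKM and gave different values. Nod2 (chr8:88647315-88688474, plus strand), which recognises muramyl dipeptide, a fragment of the peptidoglycan of most bacteria, had 4.75, 5.10 and 5.47 FPKM with atorvastatin, against 3.52, 4.72 and 3.49 FPKM with vehicle. Every atorvastatin library was above every vehicle library, but the gap between atorvastatin library 1 and vehicle library 2 was narrow. The mean was 5.11 ± 0.360 FPKM with atorvastatin and 3.91 ± 0.702 FPKM with vehicle (SD, n = 3 each), which differ by 0.32 as log2(FPKM + 1), with SE 0.13 and a 95% interval of 0.01 to 0.64. Limma gave Nod2 an unadjusted p of 0.0459 and an adjusted p of 0.692, and it did not pass. The unadjusted p was 0.0094 without vehicle library 2 and between 0.0676 and 0.140 when any other library was left out. With libraries scaled to equal sums, with or without immunoglobulin genes, the groups of Nod2 overlapped.

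Nod1 (chr6:54923949-54972612, minus strand), which recognises peptidoglycan fragments that carry diaminopimelic acid, had 8.40, 7.17 and 10.10 FPKM with atorvastatin, against 9.03, 8.42 and 8.74 FPKM with vehicle. The atorvastatin libraries lay on both sides of the vehicle libraries. The difference was -0.04 on the log2(FPKM + 1) scale (SE 0.14, 95% interval -0.36 to 0.28; limma adjusted p = 0.953), and it was 0.03 with equal sums per library. The ratio of Nod1 over Nod2 within a library was 1.77, 1.41 and 1.85 with atorvastatin, against 2.57, 1.78 and 2.50 with vehicle. The ratios overlapped between the groups and the exact permutation test on their log2 values gave p = 0.2. Since the smallest p this test can give here is 0.1, it cannot decide whether Nod1 and Nod2 differ in their response to atorvastatin.

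Pycard (chr7:127989708-127993867, minus strand), which encodes the adaptor ASC, had 6.79, 12.93 and 6.73 FPKM with atorvastatin, against 6.14, 8.78 and 10.77 FPKM with vehicle. Atorvastatin library 2 held the highest value and vehicle library 1 the lowest. The difference was 0.01 on the log2(FPKM + 1) scale (SE 0.28, 95% interval -0.67 to 0.69; limma adjusted p = 0.996), an interval that holds changes in either direction, and without atorvastatin library 2 it was -0.27. The 12 markers of colonic epithelium, Epcam and Krt8 among them, summed to 26.8, 53.4 and 23.2 FPKM with atorvastatin and 39.2, 53.7 and 51.1 FPKM with vehicle. Slc26a3 was the only marker of that list at 0 in some libraries, and 11 of the 12 had lower mean FPKM with atorvastatin. Atorvastatin library 2 and vehicle libraries 2 and 3 were thus the highest both in Pycard and in this sum; the part of epithelial cells in the Pycard values was not tested. Pycard also shares 12.8% of its merged exon length with an antisense transcript, Gm45205, which had at most 0.29 FPKM in any library, and whether counting used strand is unknown.

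Casp1 (ENSMUSG00000025888, chr9:5298508-5307290, plus strand), the caspase that most inflammasomes activate, had 7.22, 7.81 and 7.0 FPKM with atorvastatin, against 8.63, 7.95 and 11.57 FPKM with vehicle. The groups did not overlap, although atorvastatin library 2 and vehicle library 2 lay close together. The mean was 7.34 ± 0.419 FPKM with atorvastatin and 9.38 ± 1.92 FPKM with vehicle (SD, n = 3 each), which differ by -0.30 as log2(FPKM + 1), with SE 0.15 and a 95% interval of -0.66 to 0.05. Limma gave Casp1 an unadjusted p of 0.0849 and an adjusted p of 0.696. Vehicle library 3 had the highest value, and without it the difference was -0.16; the groups overlapped under all 3 other scalings of the libraries. Casp1 has the shortest merged exons of the 10 genes, 1497 nt in GENCODE M21. It is also the only one of the 10 whose deposited start and end differ from that annotation, so the length behind its FPKM may be another. Among protein-coding genes tested of up to 1500 nt the median difference was -0.16, against 0.05 above 6000 nt, and with a trend on exon length removed from each library the difference of Casp1 was -0.20 and its groups overlapped.

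Casp4 lies beside Casp1 on the same strand (chr9:5308828-5336783). It is the gene long known in mice as caspase-11, and its product binds bacterial lipopolysaccharide in the cytosol and cuts gasdermin D without an inflammasome sensor. Casp4 had 56.03, 41.91 and 61.74 FPKM with atorvastatin, against 51.53, 35.62 and 71.63 FPKM with vehicle. Vehicle libraries held both extremes, and the difference was 0.05 on the log2(FPKM + 1) scale (SE 0.27, 95% interval -0.60 to 0.69; limma adjusted p = 0.975), with -0.21 when vehicle library 2 was left out. The ratio of Casp4 to Casp1 was 7.76, 5.37 and 8.82 with atorvastatin, against 5.97, 4.48 and 6.19 with vehicle, which overlapped (exact permutation test, p = 0.3).

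Gsdmd (chr15:75862327-75867408, plus strand), the substrate that both caspases cut, followed Casp4 in level. It had 18.92, 16.71 and 19.10 FPKM with atorvastatin, against 16.91, 20.18 and 17.08 FPKM with vehicle, and the groups overlapped. The mean was 18.2 ± 1.33 FPKM with atorvastatin and 18.1 ± 1.84 FPKM with vehicle (SD, n = 3 each). The difference was 0.02 on the log2(FPKM + 1) scale, with the narrowest interval of the 8 genes, -0.27 to 0.30 (SE 0.12; limma adjusted p = 0.981).

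**Figure D2:**
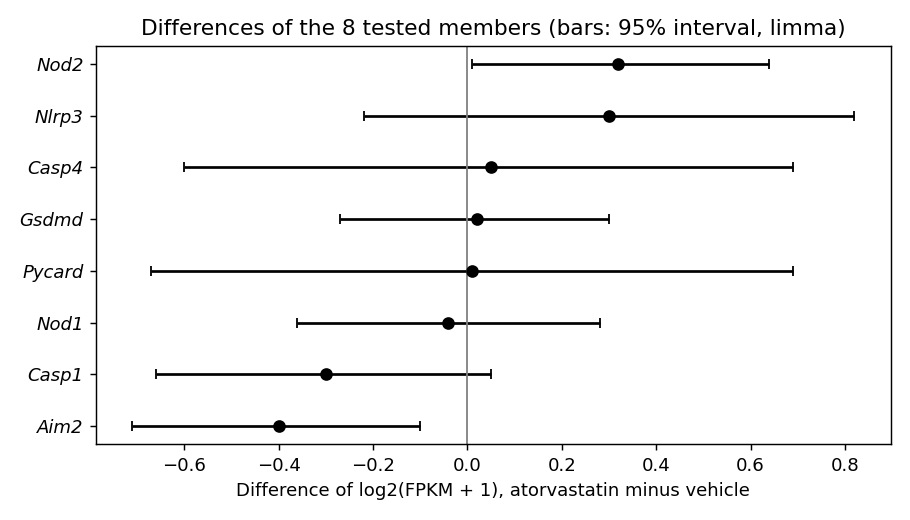
Difference of log2(FPKM + 1), atorvastatin minus vehicle, for the 8 tested genes, with points at the estimate and bars for limma's 95% interval (n = 3 each). The intervals of Aim2 (-0.71 to -0.10) and Nod2 (0.01 to 0.64) lie on one side of 0 before adjustment, those of the other 6 genes hold 0, and 0 genes passed after adjustment.

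The genes around these 10 were read from 5 lists, and 0 of their 64 tested members passed limma's threshold over all genes, in either direction. The other sensors, 12 of 19 tested, had a median difference of -0.06, with 1 gene at an unadjusted p under 0.05, against 7.17% of all genes tested. That gene was Ifi209, which like Aim2 belongs to the PYHIN family. It had 154.02, 133.24 and 157.70 FPKM with atorvastatin, against 226.00, 189.26 and 209.62 FPKM with vehicle. Its groups did not overlap, which held for 1 of the 12 sensors tested, against 14.4% of all genes tested. The log2 difference was -0.49 with SE 0.15, and limma gave an unadjusted p of 0.0148 and an adjusted p of 0.692. Ifi211, the most abundant PYHIN gene of the list, had 189.05, 174.09 and 185.05 FPKM with atorvastatin, against 209.81, 139.25 and 247.45 FPKM with vehicle, which overlapped. The remaining PYHIN genes of the list, Ifi203, Ifi204 and Ifi207, overlapped too, with log2 differences of -0.16, -0.11 and -0.03. The NAIP genes that feed Nlrc4 had mean levels between 0.0850 FPKM (Naip1) and 2.08 FPKM (Naip2), and they share sequence with each other, so reads may be split between them.

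Activators and regulators of inflammasomes, all 20 tested, had a median difference of -0.01 and 0 genes at an unadjusted p under 0.05. Hsp90ab1, a chaperone that binds NLR proteins, had 392 ± 32.8 FPKM with atorvastatin and 386 ± 4.94 FPKM with vehicle (SD, n = 3 each). Gbp2, an interferon-induced GTPase that acts upstream of Casp4, had 280 ± 30.0 FPKM with atorvastatin and 293 ± 49.0 FPKM with vehicle. Serpinb1a, an inhibitor of neutrophil proteases and of inflammatory caspases, had the smallest p of the list, with 25 ± 3.42 FPKM with atorvastatin and 32.3 ± 4.52 FPKM with vehicle (log2 difference -0.36, SE 0.16; limma adjusted p = 0.696). The groups of all 3 genes overlapped.

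Downstream, the other caspases, gasdermins and Ninj1, of which 5 of 12 were tested, had a median difference of -0.06 and 0 genes at an unadjusted p under 0.05. Casp8, which can cut gasdermin D as well, had 29.2 ± 2.61 FPKM with atorvastatin and 34.2 ± 4.06 FPKM with vehicle (SD, n = 3 each; limma adjusted p = 0.723). Ninj1, whose product ruptures the plasma membrane after pores have formed, had 12.5 ± 3.02 FPKM with atorvastatin and 15.9 ± 4.96 FPKM with vehicle (limma adjusted p = 0.792). Gasdermin C genes and Gsdme stayed at or below 1.02 FPKM in every library.

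The cytokine system that caspase-1 serves held 3 of its 9 genes at an unadjusted p under 0.05, 2 lower and 1 higher, against 4.04% lower and 3.13% higher of all genes tested, and 0 after adjustment, with a median difference of -0.06. Groups without overlap were found in 2 of the 9, both lower, against 8.85% lower of all genes tested. Il1b, the precursor of IL-1 beta, had 121.68, 144.10 and 121.25 FPKM with atorvastatin, against 187.01, 149.98 and 179.19 FPKM with vehicle. Its groups did not overlap, with a log2 difference of -0.41 (SE 0.16; limma unadjusted p = 0.0350, adjusted p = 0.692). Il1r2, a decoy receptor, had 14.84, 13.71 and 11.92 FPKM with atorvastatin, against 16.51, 16.28 and 19.79 FPKM with vehicle, and did not overlap either (-0.35, SE 0.13; limma adjusted p = 0.692). The signalling receptor Il1r1 had 26.14, 20.47 and 30.87 FPKM with atorvastatin, against 16.98, 15.15 and 21.72 FPKM with vehicle, and overlapped (0.50, SE 0.19; limma adjusted p = 0.692). Monocytes are known to express Il1b, and of their 6 markers, none at 0, 5 had lower mean FPKM with atorvastatin and Vcan higher. These markers summed to 147 to 170 FPKM with atorvastatin and 183 to 226 FPKM with vehicle. Plac8 alone held 90.08 to 154.23 FPKM of the sums, and only Plac8 had groups without overlap, 1 of the 4 tested. F13a1 stayed at or below 0.4 FPKM in every library. Neutrophils are known to express Il1b and Il1r2, and of 8 neutrophil markers 6 had lower mean FPKM with atorvastatin. Groups without overlap were found in 2 of the 4 tested, S100a8 and S100a9, both lower, against 8.85% lower of all genes tested. S100a8 ran from 0.22 to 1.6 FPKM and S100a9 from 1.2 to 5.21 FPKM. However, 4 of the 8 stayed below 1 FPKM in every library, where fold changes cannot be resolved here. The 8 markers summed to 6.51 to 10.5 FPKM with atorvastatin and 8.97 to 16.6 FPKM with vehicle. Ly6g and Camp were at 0 in some libraries, and Retnlg alone ran from 0.8 to 9.98 FPKM. The part of both cell types in these values was not tested.

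NOD signalling, 18 of 20 tested, had a median difference of 0.00 and 0 genes at an unadjusted p under 0.05. Birc3, a ubiquitin ligase of the pathway, had 56.3 ± 7.09 FPKM with atorvastatin and 61.2 ± 9.08 FPKM with vehicle (SD, n = 3 each), and Tnfaip3, a deubiquitinase that restrains it, had 38.7 ± 11 FPKM with atorvastatin and 30.7 ± 14.4 FPKM with vehicle. Map3k7, which encodes the kinase TAK1, had the smallest p of the list (limma adjusted p = 0.746). Its values were 10.65, 10.71 and 12.17 FPKM with atorvastatin, against 4.33, 9.75 and 11.62 FPKM with vehicle, and without vehicle library 1 its log2 difference was 0.06. Ripk2, the kinase that both NOD receptors engage, named beyond the rule, had 20.2 ± 3.84 FPKM with atorvastatin and 20.5 ± 6.08 FPKM with vehicle.

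**Figure D3:**
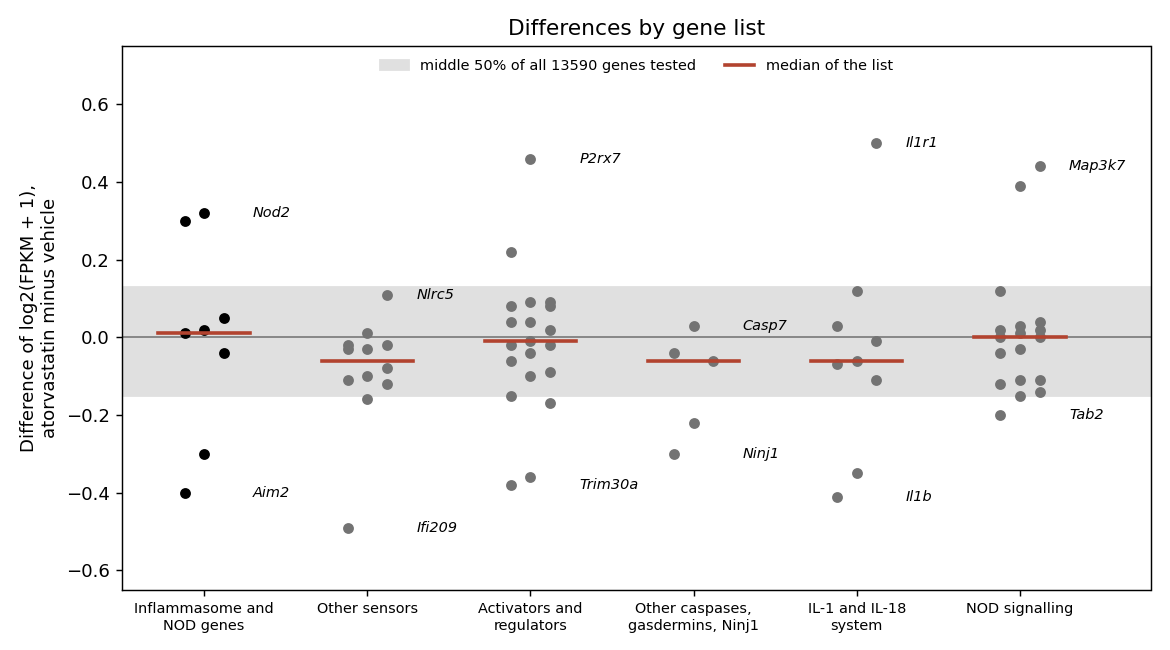
Differences of log2(FPKM + 1), atorvastatin minus vehicle, for tested genes of the 10 genes and of the 5 lists around them, 1 point per gene, with the median of each list as a line and the middle 50% of all 13590 genes tested as a grey band (-0.15 to 0.13). The medians of the lists lie between -0.06 and 0.01, inside the band, and Ifi209, Il1b, Aim2, Nod2 and Il1r1 are among the genes outside it.

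**Figure D4:**
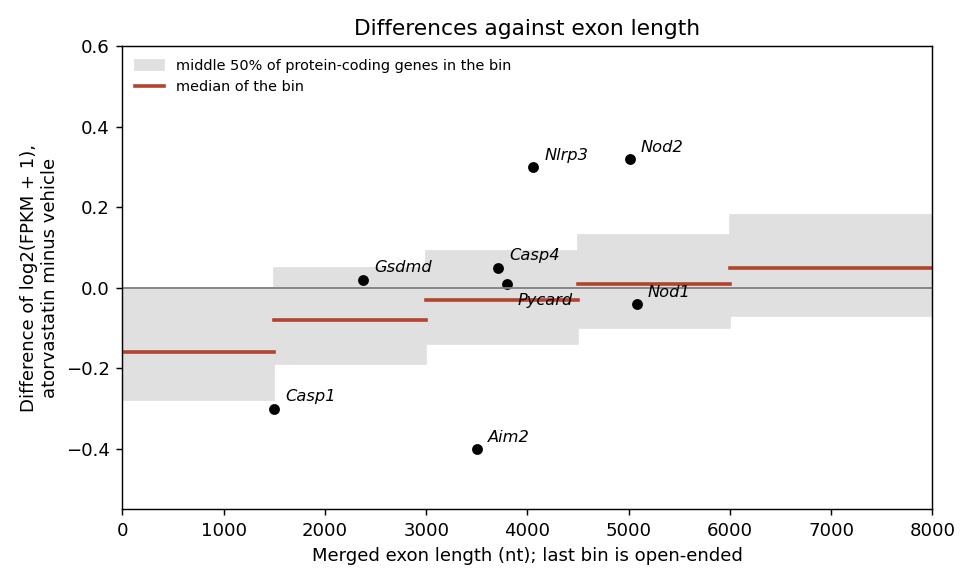
Difference of log2(FPKM + 1), atorvastatin minus vehicle, against merged exon length in nt; lines and grey bands are the median and middle 50% of the protein-coding genes tested in each length bin, and points are the 8 tested genes. The bin medians run from -0.16 for the shortest to 0.05 for the longest genes, Casp1 lies in the shortest bin, just below its band, and Aim2, Nlrp3 and Nod2 also lie outside the bands of their bins.

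Among the protein-coding genes tested, median differences moved with exon length. With the length trend removed Aim2 had a log2 difference of -0.38 and Nod2 one of 0.31, both still without overlap, against -0.40 and 0.32 before. Macrophages are a known site of Nlrp3, Nod2 and Casp1 expression, and their 12 markers summed to 236, 243 and 225 FPKM with atorvastatin and 136, 190 and 288 FPKM with vehicle. Of these markers 11 had higher mean FPKM with atorvastatin, with none at 0. The sums overlapped, with vehicle library 1 lowest and vehicle library 3 highest, and Lyz2 alone held 66.52 to 140.17 FPKM of them. Groups without overlap were found in 1 of the 10 macrophage markers tested, Mertk, which was higher, against 5.53% higher of all genes tested. Dendritic cells are another known site. Their 10 markers summed to 162, 165 and 146 FPKM with atorvastatin and 188, 223 and 171 FPKM with vehicle. These sums did not overlap, but Ccr7 alone held 110.66 to 183.16 FPKM of them. Groups without overlap were found in 0 of the 9 dendritic markers tested, Ccr7 included. Of the 10 markers 8 had lower mean FPKM with atorvastatin, Zbtb46 had a ratio of means of 0.999, and only Siglech was higher. Siglech was at or below 0.11 FPKM in every library and at 0 in vehicle library 3. Of the genes above, Aim2 and Casp1 had lower mean FPKM with atorvastatin, and Nlrp3 and Nod2 had higher mean FPKM. The part of both cell types in these values was not tested. Of the 10 genes, 9 shared at most 1.45% of their transcript 50-mers with any other gene's transcripts, Nlrp1b with its neighbour Nlrp1a among them, and Pycard shared 11.7%, mostly with Gm45205.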

How the data were processed

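The FPKM values are as deposited by the authors, 1 library per table, per the file headers. The submitters' processing notes name FastQC 0.11.2, Bowtie and the build mm10; which quantifier, annotation and strand setting were used is not given in the sources here. FPKM keeps no depth, so no counting interval is given. Symbols, exons and transcripts came from GENCODE M21, and coordinates are those of the deposited tables. All 169 listed genes around the 10 members, cell type markers included, were matched, 3 of them through RefSeq synonyms.

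The 13590 genes that reached 1 FPKM in 3 or more libraries were fitted on log2(FPKM + 1) by limma-trend (limma 3.58.1 under R 4.3.3), 3 atorvastatin against 3 vehicle libraries without covariates. Adjusted p-values are Benjamini-Hochberg values over these genes, called under 0.05. This scale understates changes of genes with low values. Genes below the filter, and ratios, were compared by a two-sided exact permutation test (scipy 1.17.1). The fit was checked on simulated data. Named beside the members were the 2 most abundant genes of each list, any past the threshold, and otherwise the gene with the smallest p. Ripk2, Ifi203, Ifi204, Ifi207, the NAIP genes, Gsdme, the gasdermin C genes, Casp12 and P2rx7 were named beyond that rule. The members and lists were chosen with earlier results of these data known. Alternatives were pseudocounts, filters, scalings, the replicate number as a block, robust variance and leaving out each library; removing a trend on exon length, the ratios and the motifs were chosen after the data were seen.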

Additional observations from a re-analysis of the deposited data

How the results depend on the processing

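Under every alternative run, 0 of the 8 genes and 0 genes of the 5 lists passed the threshold. Over all genes 0 passed, except with 1 library left out, where the count was 0 to 2 (1 without atorvastatin library 1, 2 without atorvastatin library 3); none of those genes is a member or in a list. Genes at an unadjusted p under 0.05 numbered 974, but 1761 with no filter, 446 with equal sums, and 535 and 459 without atorvastatin libraries 1 and 3; with equal sums the unadjusted p of Aim2 was 0.105. The signs of Aim2, Casp1, Nod2 and Nlrp3 held under all alternatives, libraries left out included: -0.48 to -0.31 in Aim2, -0.40 to -0.16 in Casp1, 0.26 to 0.44 in Nod2 and 0.14 to 0.47 in Nlrp3. The groups of Aim2 stayed apart throughout, whereas those of Casp1 overlapped with median-of-ratios scaling and both equal-sum scalings and with the length trend removed, and those of Nod2 with both equal-sum scalings. Near 0, Nod1 turned to 0.03 with equal sums and 0.05 with equal sums without immunoglobulin genes, Gbp2 to 0.01 and 0.04, and Ifi211 to 0.01 in the second and 0.00 with the length trend removed. With 1 library left out the differences ran from -0.27 to 0.17 in Pycard, -0.21 to 0.29 in Casp4, -0.15 to 0.07 in Nod1, -0.03 to 0.09 in Gsdmd, -0.32 to 0.09 in Ifi211, -0.03 to 0.09 in Hsp90ab1 and -0.21 to 0.03 in Gbp2; the cause was not tested. Deviations from the group means gave r of -0.109, 0.137 and -0.0151 between same-numbered libraries of the groups. The highest r of the same atorvastatin libraries with another vehicle library was 0.192, 0.057 and 0.0482, so only number 2 was closest to its own number. With 3 libraries per group these values cannot show whether pairs exist, and the libraries were not treated as pairs. With the replicate block 852 genes had an unadjusted limma p under 0.05, against 974 without it, and 0 passed. The unadjusted limma p was then 0.0149 for Aim2 and 0.0664 for Nod2. Fold changes of genes near 1 FPKM or below cannot be resolved without the fragment counts.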

Other observations

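Casp12, the neighbour of Casp4 on chromosome 9, had 6.55, 5.22 and 7.49 FPKM with atorvastatin, against 7.02, 4.59 and 8.75 FPKM with vehicle. Both Casp12 and Casp4 were highest in vehicle library 3 and lowest in vehicle library 2, and Casp1 beside them was also highest in vehicle library 3 but lowest in atorvastatin library 3. Smooth muscle markers, all 6 with higher mean FPKM with atorvastatin, summed to 1027, 733 and 792 FPKM with atorvastatin and 624, 574 and 1088 FPKM with vehicle; their part in the caspase values was not tested. P2rx7, the ATP-gated channel that opens upstream of Nlrp3, had 3.12, 3.13 and 2.40 FPKM with atorvastatin, against 1.82, 2.73 and 1.12 FPKM with vehicle (log2 difference 0.46, SE 0.22; limma adjusted p = 0.696), with its lowest value, like that of Nlrp3 and Nod2, in vehicle library 3. These genes were chosen after their values were seen.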
